A study of Mus musculus with 10 samples.

Results

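The genes examined were 10 genes of the VEGF and PDGF families, chosen by name from the 24538 genes of the count files. They were the VEGF ligands Vegfa, Vegfb, Vegfc and Pgf, the VEGF receptors Flt1, Kdr and Flt4, and the PDGF ligands Pdgfa, Pdgfb and Pdgfc. The series compared metastasis-associated macrophages (MAMs) of mouse lung metastases with resident alveolar macrophages (RAMs) of normal mouse lungs, with 5 RNA-seq libraries of each. All mice were wild type C57BL6/J females, aged 8 to 10 weeks. Metastases came from E0771-LG, a line of mouse mammary carcinoma cells, given through the tail vein to mice of 6 to 8 weeks, and nodules from 2 to 4 mice were pooled for a MAM sample. MAMs were sorted as CD11B+CD11C- cells and RAMs as CD11B-CD11C+ cells, and both sorts also required CD45+, LY6C-, MRC1+ and high forward scatter together with the macrophage antigen that Adgre1 encodes. Digestion of both tissues took place with the transcription inhibitors alpha-amanitin and actinomycin D. The groups therefore differed in tumour exposure and in macrophage population, and these cannot be told apart. Nor can fewer cells of a type be told apart from less RNA per cell in bulk libraries.

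VEGF ligands are secreted proteins that drive the growth, survival and permeability of blood and lymphatic vessels. VEGFA binds the receptor tyrosine kinases FLT1 (VEGFR1) and KDR (VEGFR2), VEGFB and PGF bind FLT1, and VEGFC binds FLT4 (VEGFR3) and, once processed, KDR. KDR is the main signalling receptor of blood endothelium, FLT4 that of lymphatic endothelium, and FLT1 is also carried by monocytes and macrophages. PDGF ligands act mainly on pericytes, smooth muscle cells and fibroblasts through PDGFRA and PDGFRB.

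Counts on genes ran from 55391447 to 87523247 in MAM libraries and from 50746305 to 72150650 in RAM libraries. Levels of a gene across libraries are given as CPM, its count per 1000000 counts of the tested genes after TMM normalization. Levels of different genes are compared as FPKM, which is scaled by transcript length. Itgam, the gene of CD11B, had 6270 CPM in MAMs and 64.3 CPM in RAMs, and Itgax, the gene of CD11C, had 171 and 991 CPM. Of 12 markers of recruited macrophages 12 were higher in MAMs, and of 11 markers of alveolar macrophages 10 were lower. The exception was Marco (adjusted p = 0.076 in the edgeR test). C1qb and Chil3 were the most abundant genes of these lists. Itgam and Adgre1 are in the recruited list and Itgax is in the alveolar list. They encode antigens of the sort and are not independent of it. With this limit, the libraries of each group carried the markers of their labels.

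Of the 10 genes, 8 had a mean FPKM of at least 1 in either group and were tested together with the other genes that passed this filter, 11571 in all. In MAMs 4 were higher and 3 were lower when p, adjusted by the Benjamini-Hochberg method, was required to be below 0.05 in the quasi-likelihood test of edgeR. Over all tested genes 28.9% were called higher and 27.3% lower. All 7 calls also exceeded a fold change of 2, which 15.3% of all tested genes did upward and 15.1% downward. The 5 libraries of MAMs did not overlap the 5 of RAMs for 7 of the 8 genes, against 44.9% of all tested genes. The median absolute log2 fold change was 3.80 for the 8 genes and 0.56 for all tested genes. The 10 genes were chosen with earlier results of these data known. Kdr, Pdgfa, Pdgfb and Pgf passed the filter only through the group with their higher mean. The comparisons with all tested genes are therefore a description and no test of the 8 genes as a set. Each family split in direction. Vegfa rose while Vegfb fell, Kdr rose while Flt1 fell, and Pdgfa and Pdgfb rose while Pdgfc fell.

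**Figure D1:**
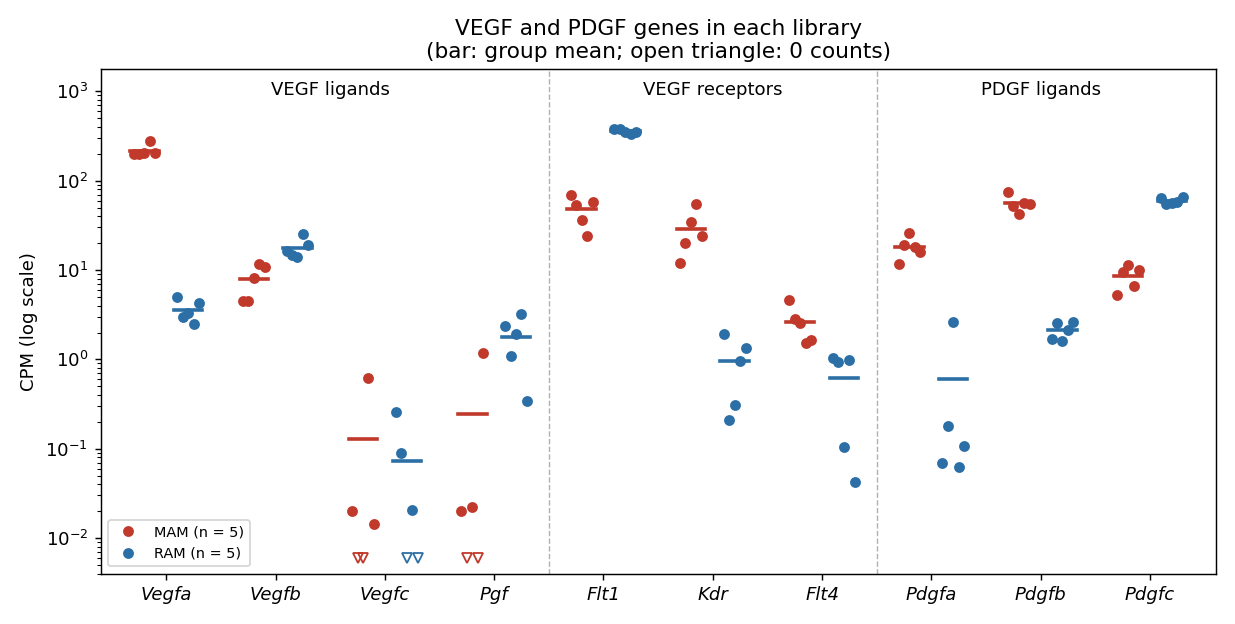
CPM (log axis) of the 10 genes in each of the 5 MAM (red) and 5 RAM (blue) libraries, with bars at group means and open triangles for libraries with 0 counts. Vegfa, Kdr, Flt4, Pdgfa and Pdgfb lay higher in all MAM libraries, Vegfb, Flt1 and Pdgfc lay lower in all of them, and Vegfc and Pgf overlapped between groups.

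The sequences before the starts of Vegfa, Flt1 and Pdgfc are shown for the member that rose the most and the pair of members that fell the most among those called. The windows are the 250 bases before the RefSeq start in GRCm38.p6, written 5′ to 3′ on the strand of the gene, and lie outside the transcribed part. Capitals mark matches, on either strand, to the GC box GGGCGG, the hypoxia response core ACGTG or GCGTG, and the TATA box TATAAA. No matches to different motifs overlapped in these windows.
Vegfa (chr17:46032378-46032627, minus strand): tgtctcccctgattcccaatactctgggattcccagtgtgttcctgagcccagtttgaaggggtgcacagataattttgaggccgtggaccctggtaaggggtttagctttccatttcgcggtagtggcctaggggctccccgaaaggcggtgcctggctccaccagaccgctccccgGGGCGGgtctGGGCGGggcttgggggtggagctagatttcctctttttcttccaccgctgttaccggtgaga
Flt1 (chr5:147726012-147726261, minus strand): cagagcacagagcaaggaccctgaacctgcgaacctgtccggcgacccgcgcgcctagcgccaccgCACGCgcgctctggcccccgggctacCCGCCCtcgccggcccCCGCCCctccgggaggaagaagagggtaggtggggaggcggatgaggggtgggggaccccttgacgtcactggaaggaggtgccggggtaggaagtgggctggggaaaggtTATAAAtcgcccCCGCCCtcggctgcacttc
Pdgfc (chr3:81036166-81036415, plus strand): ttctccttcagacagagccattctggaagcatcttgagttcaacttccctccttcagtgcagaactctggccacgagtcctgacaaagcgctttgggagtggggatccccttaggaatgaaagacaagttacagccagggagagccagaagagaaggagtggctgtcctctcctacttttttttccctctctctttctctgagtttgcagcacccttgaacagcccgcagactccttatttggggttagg
The Vegfa window shown held 2 GC boxes and no hypoxia response core. RefSeq has a second Vegfa window (chr17:46025164-46025413), not shown, which held 1 GC box and 2 hypoxia response cores. The Flt1 window held 3 GC boxes, 1 hypoxia response core and 1 TATA box, the last base of which lay 26 bases before the start. None of the motifs was found in the Pdgfc window. Of 32851 mouse promoter windows of this length, 32.7% held a GC box, 38.6% a hypoxia response core and 12.4% a TATA box. RefSeq windows matched 9 of the 10 genes, all but Pdgfb. These matches describe letters and not binding.

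Vegfa encodes the ligand that binds both FLT1 and KDR and is induced by low oxygen. It lies on chromosome 17 from 46016993 to 46032369 on the minus strand (GRCm38, GENCODE M21). It had 198, 201, 202, 277 and 205 CPM in MAM replicates 1 to 5, and 4.97, 2.96, 3.33, 2.48 and 4.24 CPM in RAM replicates 1 to 5. All MAM libraries were far above all RAM libraries, and MAM replicate 4 was the highest. The mean was 217 ± 33.6 CPM in MAMs and 3.60 ± 1.00 CPM in RAMs (SD, n = 5 each), a 60.2-fold difference. The log2 fold change was 5.91 with a standard error of 0.19 (adjusted p = 1.5e-12, edgeR). The mean level in RAMs was 1.66% of that in MAMs. Among 116 genes with over 1000 CPM in MAMs, the lowest such share was 0.912%, of C1qb. When 1% of the other group's level was subtracted from each count, the log2 fold change of Vegfa was 7.25 (adjusted p = 2.1e-08, edgeR), so the size of the change depended on this low level. This adjusted p was the highest for Vegfa over 19 alternatives.

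Vegfb encodes a ligand of FLT1 with a weak role in vessel growth, and lies on chromosome 19 from 6982473 to 6987651 on the minus strand. It had 4.45, 4.50, 8.23, 11.6 and 10.9 CPM in MAM replicates 1 to 5. In RAM replicates 1 to 5 it had 16.3, 14.9, 13.9, 25.1 and 18.9 CPM. The groups did not overlap, although the highest MAM library came near the lowest RAM library. The level was 2.24-fold higher in RAMs, at a log2 fold change of -1.16 with a standard error of 0.30 (adjusted p = 0.0037, edgeR). It was the smallest change among the 7 called genes.

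Pgf encodes placental growth factor, a ligand of FLT1, and lies on chromosome 12 from 85166635 to 85177790 on the minus strand. MAM replicates 1 to 5 had 1, 0, 1, 0 and 83 counts, and RAM replicates 1 to 5 had 139, 72, 93, 156 and 16 counts. MAM replicate 5, at 1.19 CPM, was above RAM replicate 5, at 0.341 CPM, and 4 of the MAM libraries were at or near 0. The log2 fold change of -2.81 with a standard error of 1.23 did not pass the threshold (adjusted p = 0.065, edgeR). The call depended on a single library and on the method. Without MAM replicate 5 the adjusted p was 6.5e-05 (edgeR), and no fold is given because the remaining MAM libraries held at most 1 count. DESeq2 also called the gene (adjusted p = 0.042). Over 19 alternatives, with limma among them, the adjusted p ran from 6.5e-05 to 0.12.

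Vegfc, the main ligand of FLT4 in lymphatic growth, was scarcely detected in either group. It lies on chromosome 8 from 54077606 to 54187096 on the plus strand and was below the FPKM filter. MAM replicates 1 to 5 had 1, 0, 0, 34 and 1 counts, and RAM replicates 1 to 5 had 15, 6, 0, 1 and 0 counts. A count of 0 allows up to 3 counts, which corresponds to between 0.0431 and 0.0671 CPM in these libraries. The groups overlapped and their difference was not detectable at this depth (two-sided exact permutation test, p = 0.897).

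Vegfa made up 87.8% ± 4.00 of the summed FPKM of the 4 VEGF ligands in MAMs and 4.95% ± 1.74 in RAMs (SD, n = 5 each). Vegfb made up 11.9% ± 3.62 in MAMs and 89.0% ± 3.84 in RAMs. The sum of the 4 ligands was 81.9 ± 15.2 FPKM in MAMs and 25.0 ± 6.68 FPKM in RAMs. The prevailing VEGF ligand transcript was thus Vegfa in each MAM library and Vegfb in each RAM library. Pgf reached at most 8.61% of the ligand sum in a RAM library.

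**Figure D2:**
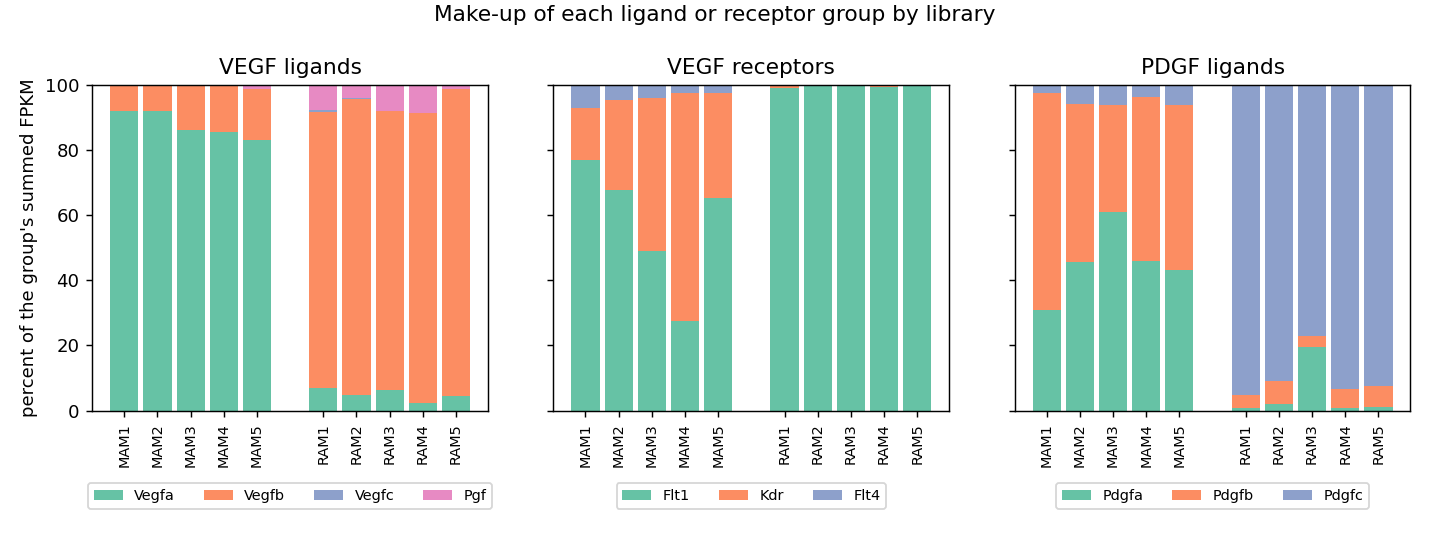
Percent of the summed FPKM of the 4 VEGF ligands, the 3 VEGF receptors and the 3 PDGF ligands taken by each gene, as a stacked bar for each of the 10 libraries. Vegfa held 83.2% to 92.0% of the VEGF ligands in MAM libraries, Flt1 over 99% of the receptors in RAM libraries, and Pdgfc 77.0% to 95.3% of the PDGF ligands in RAM libraries.

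Flt1 encodes a receptor that binds VEGFA, VEGFB and PGF and also occurs as a soluble form that captures ligand. It lies on chromosome 5 from 147561604 to 147726011 on the minus strand. It had 69.7, 53.0, 36.7, 24.4 and 58.4 CPM in MAM replicates 1 to 5. In RAM replicates 1 to 5 it had 384, 384, 352, 333 and 347 CPM. The RAM libraries lay close together, with a coefficient of variation of 6.34%, and all were above the MAM libraries, where it was 37.1%. The level was 7.43-fold higher in RAMs, at a log2 fold change of -2.89 with a standard error of 0.22 (adjusted p = 2.1e-08, edgeR). At 56.9 ± 2.96 FPKM (SD, n = 5) Flt1 was the most abundant of the 10 genes in RAMs, and 90.7% of the tested genes had a lower mean there. Gene counts do not separate the membrane form from the soluble form.

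Kdr encodes the main signalling receptor for VEGFA and lies on chromosome 5 from 75932827 to 75978458 on the minus strand. It had 12.1, 19.9, 34.2, 54.3 and 24.3 CPM in MAM replicates 1 to 5, and 1.92, 0.210, 0.311, 0.960 and 1.34 CPM in RAM replicates 1 to 5. All MAM libraries were above all RAM libraries, and MAM libraries spread widely, from the lowest in replicate 1 to the highest in replicate 4. The level was 30.6-fold higher in MAMs, at a log2 fold change of 4.93 with a standard error of 0.58 (adjusted p = 3.1e-06, edgeR). With limma on log2(FPKM + 1) the log2 fold change was 2.22, a scale that understates changes of low genes.

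Flt4 encodes the receptor for VEGFC and VEGFD and lies on chromosome 11 from 49609263 to 49652739 on the plus strand. Its mean was 0.521 FPKM in MAMs and 0.137 FPKM in RAMs, below the filter. It had 4.64, 2.83, 2.53, 1.54 and 1.64 CPM in MAM replicates 1 to 5. In RAM replicates 1 to 5 it had 1.04, 0.946, 0.104, 0.981 and 0.0426 CPM. All MAM libraries were above all RAM libraries (two-sided exact permutation test of mean CPM, p = 0.00794, the smallest that 5 against 5 can give, and 0.0159 after Benjamini-Hochberg adjustment over the 2 genes below the filter). Fitted without the filter, its log2 fold change was 2.09 (adjusted p = 0.047, edgeR).

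Flt1 and Kdr ran in nearly opposite order among MAM libraries. Replicate 1 had the highest Flt1 and the lowest Kdr, and replicate 4 had the lowest Flt1 and the highest Kdr. Flt1 took from 27.4% to 77.1% of the summed receptor FPKM in MAMs and from 99.1% to 99.8% in RAMs. Kdr took from 15.8% to 70.2% in MAMs and at most 0.574% in RAMs. The receptor sum spread less, at 12.8 ± 0.898 FPKM in MAMs against 57.3 ± 3.02 FPKM in RAMs (SD, n = 5 each). With 5 libraries no correlation was computed.

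Because Kdr and Flt4 mark endothelium in the lung, the markers of endothelial cells were set beside them. The 20 endothelial markers summed to between 68.2 and 104 CPM in MAMs and between 228 and 315 CPM in RAMs, and 4 of them were tested. Most of the sum in RAMs came from Vwf and Calcrl, with means of 151 and 95.8 CPM there and 19.3 and 43.3 CPM in MAMs. Pecam1 (CD31) was higher in MAMs, at 4.43, 14.9, 15.2, 30.8 and 17.5 CPM in replicates 1 to 5 and between 0.518 and 4.71 CPM in RAMs (adjusted p = 0.00036, edgeR). Like Kdr it was lowest in MAM replicate 1 and highest in MAM replicate 4. Among MAM libraries Cdh5 was lowest in replicate 2 (4.82 CPM) and highest in replicate 5 (10.8 CPM). Vwf was lowest in replicate 1 (6.36 CPM) and highest in replicate 3 (25.6 CPM). Cdh5 was also higher in MAMs (log2 fold change 1.48, adjusted p = 0.0084, edgeR), while Vwf, the marker with the highest mean FPKM in either group (in RAMs), and Calcrl were lower. Among the markers below the filter, the highest level in a MAM library ran from 0 CPM for Cldn5 to 1.31 for Ramp2, 2.06 for Erg and 6.06 for Aplnr. Aplnr had a mean of 3.51 CPM in MAMs and 0.146 CPM in RAMs. Ramp2 and Emcn also had higher means in MAMs, and the rest of the markers below the filter had lower ones. Among the latter, Ptprb had means of 0.181 CPM in MAMs and 5.24 CPM in RAMs, Esam 0.364 and 1.52 CPM, and Erg 0.596 and 1.33 CPM. The part of endothelial RNA in the Kdr difference was not tested. Of the 6 lymphatic markers, Lyve1 and Pdpn, the most abundant, were higher in MAMs at 61.8 and 117 CPM, Prox1 was lower, Mmrn1 reached at most 1.22 CPM in any library, and Ccl21a and Reln were at or below 3 counts throughout. The list summed to between 114 and 213 CPM in MAMs and between 20.3 and 30.6 CPM in RAMs.

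**Figure D3:**
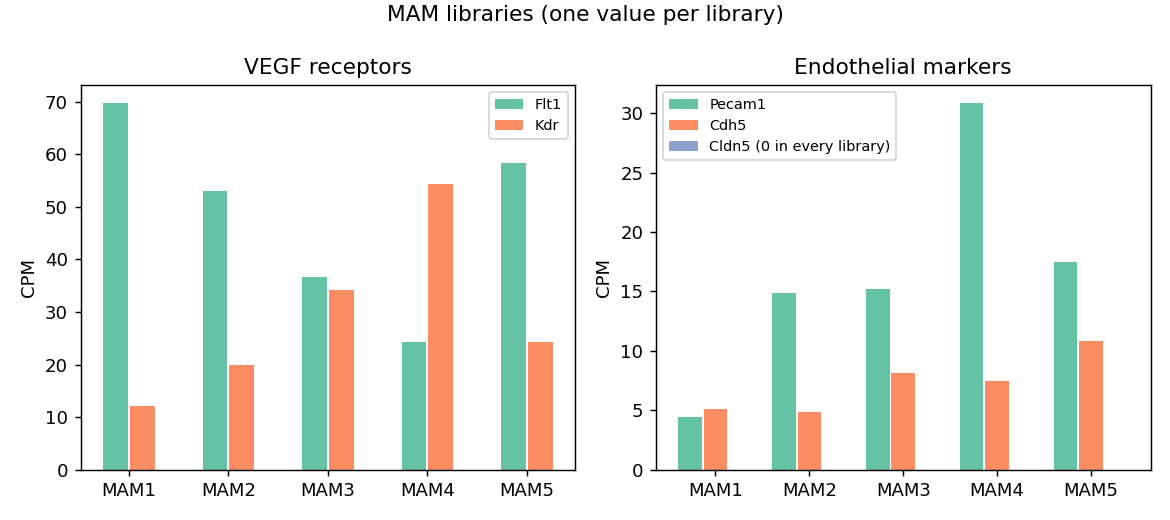
CPM of Flt1 and Kdr (left) and of the endothelial markers Pecam1, Cdh5 and Cldn5 (right) in each of the 5 MAM libraries. Kdr and Pecam1 were both lowest in replicate 1 (12.1 and 4.43 CPM) and highest in replicate 4 (54.3 and 30.8 CPM). Cdh5 was lowest in replicate 2 (4.82 CPM) and highest in replicate 5 (10.8 CPM), and Cldn5 was at 0 in all 5.

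Pdgfb encodes the PDGF chain that recruits pericytes through PDGFRB, and lies on chromosome 15 from 79995874 to 80014977 on the minus strand. It had 74.1, 52.1, 42.6, 55.9 and 54.6 CPM in MAM replicates 1 to 5. In RAM replicates 1 to 5 it had 1.71, 2.55, 1.59, 2.15 and 2.62 CPM. The groups lay far apart, and the level was 26.3-fold higher in MAMs, at a log2 fold change of 4.71 with a standard error of 0.21 (adjusted p = 4.5e-11, edgeR).

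Pdgfa encodes the chain that acts mainly on PDGFRA, and lies on chromosome 5 from 138976014 to 138997370 on the minus strand. It had 11.7, 19.3, 25.9, 17.9 and 15.9 CPM in MAM replicates 1 to 5. RAM replicate 3 had 2.63 CPM, whereas the other RAM libraries had between 0.0626 and 0.180 CPM. All MAM libraries were above all RAM libraries. The log2 fold change was 4.91 with a standard error of 0.89 (adjusted p = 0.00023, edgeR), and 7.37 without RAM replicate 3 (adjusted p = 4.0e-09, edgeR). Over 19 alternatives of edgeR, DESeq2 and limma the adjusted p was at most 0.0043. The size of the change, though not its call, therefore rested on that library.

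Pdgfc encodes a ligand of PDGFRA that is secreted in a latent form and activated by cleavage. It lies on chromosome 3 from 81036416 to 81214040 on the plus strand. It had 5.27, 9.43, 11.4, 6.60 and 10.0 CPM in MAM replicates 1 to 5. In RAM replicates 1 to 5 it had 63.6, 54.6, 56.3, 58.4 and 65.0 CPM. All RAM libraries were above all MAM libraries, with a coefficient of variation of 7.60% among RAMs. The level was 6.97-fold higher in RAMs, at a log2 fold change of -2.80 with a standard error of 0.20 (adjusted p = 8.5e-09, edgeR).

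In MAMs Pdgfa and Pdgfb together made up nearly all of the PDGF ligand FPKM, at 45.4% ± 10.7 and 49.7% ± 11.9 (SD, n = 5), and Pdgfc made up 4.92% ± 1.60. In RAMs Pdgfc made up 89.8% ± 7.33 (SD, n = 5). The sum of the 3 ligands was 48.5 ± 4.32 FPKM in MAMs and 18.9 ± 1.60 FPKM in RAMs. Scaled by the annotated exon length instead, Pdgfb held 63.9% and Pdgfa 28.0% in MAMs, so the balance of the pair depended on the length used. Exons of Pdgfa and Pdgfc are shared with annotated antisense genes, 6330403L08Rik and Gm16000, and the strand setting of the counting is not given in the sources used here. Reads of these overlaps cannot be assigned to a strand.

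PDGF proteins are also stored in platelets, so platelet markers were set beside them. Of 12 markers 5 were tested. Pf4, the most abundant, and Ppbp were higher in MAMs at 565 and 148 CPM, Gp5 and Clec1b were lower, and Gp9 did not pass the threshold. The list summed to between 356 and 1051 CPM in MAMs and between 36.9 and 50.9 CPM in RAMs. Apart from Pf4 and Ppbp, the highest level in a MAM library ran from 0.0894 CPM for Gp1bb to 4.74 CPM for Itga2b. Treml1 had a mean of 1.26 CPM in MAMs and 0.254 CPM in RAMs. The part of platelet RNA in these differences was not tested.

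**Figure D4:**
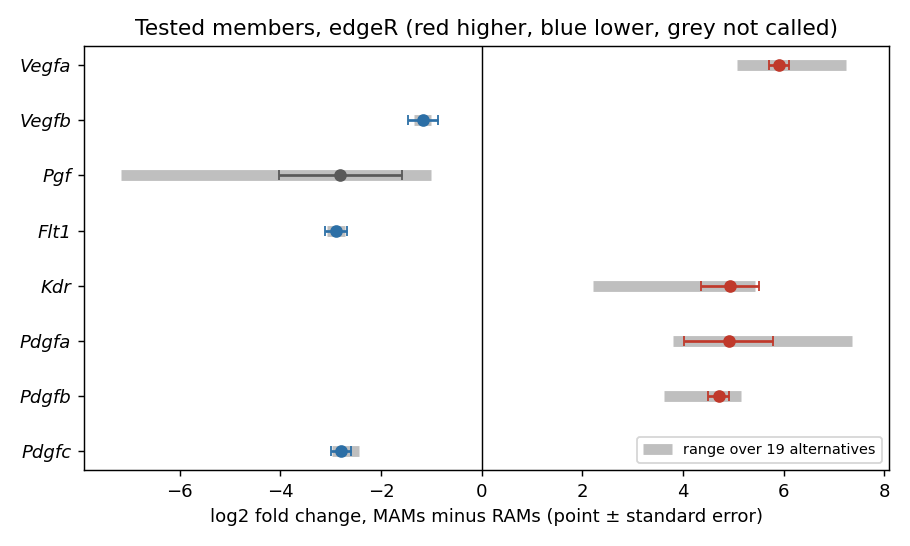
log2 fold change of MAMs minus RAMs for the 8 tested genes (points, with standard errors, edgeR), coloured by call, over grey bars that span the 19 alternative fits. Pgf crossed the threshold in some alternatives, and the far end of its bar is the fit without MAM replicate 5, which is no bound, while the other 7 genes kept their direction and call in all 19.

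The order of levels differed between the groups. In MAMs mean FPKM fell from Vegfa (71.6) through Pdgfb (23.8), Pdgfa (22.3), Vegfb (9.98), Flt1 (7.34), Kdr (4.93), Pdgfc (2.40), Flt4 (0.521) and Pgf (0.208) to Vegfc (0.0797). Vegfa stood clear of Pdgfb and Pdgfc of Flt4, while the libraries of each other pair of neighbours overlapped. In RAMs the order was Flt1 (56.9), Vegfb (22.3), Pdgfc (16.9), Pgf (1.51), Vegfa (1.16), Pdgfb (0.998), Pdgfa (0.980), Kdr (0.175), Flt4 (0.137) and Vegfc (0.0427). Flt1 stood clear of Vegfb and Pdgfc of Pgf, and each other pair of neighbours overlapped.

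The other receptors of the family were examined next. Nrp1 and Nrp2 encode neuropilins, coreceptors for VEGF ligands. Nrp2 had between 346 and 454 CPM in MAMs and between 196 and 261 CPM in RAMs and rose by 0.82 on the log2 scale (adjusted p = 5.9e-06, edgeR). Nrp1 had between 156 and 258 CPM in MAMs and between 132 and 162 CPM in RAMs, groups that overlapped, and rose by 0.57 (adjusted p = 9.0e-04, edgeR). Both were far above Kdr in each group on the FPKM scale, at 33.9 for Nrp1 and 68.7 for Nrp2 in MAMs. Pdgfra, the receptor of PDGFA and PDGFC, had 1.55, 1.95, 8.21, 2.17 and 7.31 CPM in MAM replicates 1 to 5. In RAMs it had between 0 and 0.725 CPM. Its log2 fold change was 4.49 (adjusted p = 0.0027, edgeR) and ran from 0.798 to 6.13 over 19 alternatives. Pdgfrb, at between 0.0375 and 3.07 CPM in MAMs and between 0 and 0.563 CPM in RAMs, was below the filter. Pdgfra and Pdgfrb also mark fibroblasts and pericytes. That list of 13 markers summed to between 17.4 and 55.2 CPM in MAMs and between 19.9 and 25.5 CPM in RAMs, its most abundant gene Tagln did not pass the threshold, and Lum and Rgs5 were at 0 counts in every MAM library. Col1a1 had 13.1 and 10.6 CPM in MAM replicates 1 and 3, and between 0.206 and 1.90 CPM in the others, and was called higher (adjusted p = 0.0031, edgeR). Col3a1 had a mean of 5.23 CPM in MAMs and 0.265 CPM in RAMs, and Col1a2 2.62 and 0.517 CPM, both below the filter. Of the 5 tested markers of this list 2 were higher, 1 was lower and 2 did not pass the threshold. The lower one was Cspg4, at 2.64 CPM in MAMs and 7.92 CPM in RAMs (adjusted p = 0.0091, edgeR). The part of such cells in the Pdgfra difference was not tested. Vegfd and Pdgfd, also below the filter, reached at most 2.71 and 3.09 CPM in a MAM library.

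Of 13 genes of ligand processing and release 9 were tested, of which 6 were higher and 2 lower in MAMs, at a median log2 fold change of 3.17 against -0.02 over all tested genes. Mmp9, a protease that frees matrix-bound VEGF, rose by 6.21 on the log2 scale. Hpse, which cleaves heparan sulfate, rose by 6.20, and Sdc1, a heparan sulfate proteoglycan, rose by 6.09 (adjusted p of the 3 from 7.7e-11 to 3.2e-07, edgeR). Over 19 alternatives the log2 fold change of Mmp9 ran from 2.77 to 7.30. That of Hpse ran from 4.05 to 7.89 and that of Sdc1 from 4.32 to 7.65. Furin, which cleaves the precursors of VEGFC and of PDGF chains, was lower by 0.32, and Ccbe1, a cofactor of VEGFC processing, was lower by 1.50.

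Oxygen sensing genes were examined because Vegfa is a classical target of hypoxia-inducible factors. Of 14 genes 12 were tested, of which 7 were higher and 1 was lower in MAMs. Their median log2 fold change was 0.26. The shares called over all tested genes were 28.9% higher and 27.3% lower. Hif1a had between 581 and 689 CPM in MAMs and between 89.0 and 115 CPM in RAMs and rose by 2.68 (adjusted p = 2.4e-12, edgeR). Epas1, which encodes HIF2A, went the other way, with between 2.15 and 6.89 CPM in MAMs and between 43.7 and 82.0 CPM in RAMs (log2 fold change -3.64, adjusted p = 9.3e-08, edgeR). Egln3, a prolyl hydroxylase that is itself induced by hypoxia, rose by 4.62 (adjusted p = 3.0e-04, edgeR), at between 3.53 and 14.8 CPM in MAMs. Its log2 fold change ran from 1.84 to 5.20 over 19 alternatives. Upper-quartile scaling, which moved the median of all genes from -0.02 to -0.18, gave 5 calls in this list in place of 8, and under it 40.3% of all calls were upward, against 51.4%.

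Of 25 other secreted angiogenic factors 15 were tested, of which 11 were higher and 2 lower in MAMs, at a median log2 fold change of 1.71. Among all tested genes 28.9% were called higher and 27.3% lower. Ecm1, an extracellular matrix protein, rose by 5.64 to 1351 CPM, and Adm, adrenomedullin, rose by 5.95 but had only between 0.217 and 1.93 CPM in MAMs. Fgf1, a fibroblast growth factor, went the other way, at 0.162 CPM in MAMs and 24.5 CPM in RAMs (log2 fold change -7.24, adjusted p = 1.1e-09, edgeR). MAM libraries held only 4 to 17 counts of Fgf1. The log2 fold change of Fgf1 ran from -10.8 to -2.70 over 19 alternatives, and that of Adm from 0.944 to 7.48. Of 19 angiogenesis inhibitors 11 were tested, of which 6 were higher and 2 lower, at a median log2 fold change of 3.24. Thbs1, thrombospondin 1, rose by 6.74 to 2754 CPM (adjusted p = 2.7e-16, edgeR), and the chemokines Pf4 and Cxcl10 rose by 6.49 and 6.33. Their means in RAMs were low, at 25.8 CPM for Thbs1, 6.24 for Pf4 and 10.3 for Cxcl10. Over 19 alternatives the log2 fold change of Thbs1 ran from 6.38 to 13.8. That of Pf4 ran from 6.33 to 9.52 and that of Cxcl10 from 6.16 to 8.52, so the sizes depended on the fit.

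Of 33 genes of receptor tyrosine kinase signalling 32 were tested, of which 16 were higher and 10 lower in MAMs, at a median log2 fold change of 0.30. For all tested genes the called shares were 28.9% higher and 27.3% lower. Prkcb, a protein kinase C isoform, rose by 5.70 (adjusted p = 5.0e-10, edgeR), and Ptk2, focal adhesion kinase, rose by 4.79 (adjusted p = 3.9e-08, edgeR). Plcg1, the phospholipase downstream of KDR, was lower, at 8.11 CPM in MAMs and 19.5 CPM in RAMs, and was chosen after its values were seen.

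**Figure D5:**
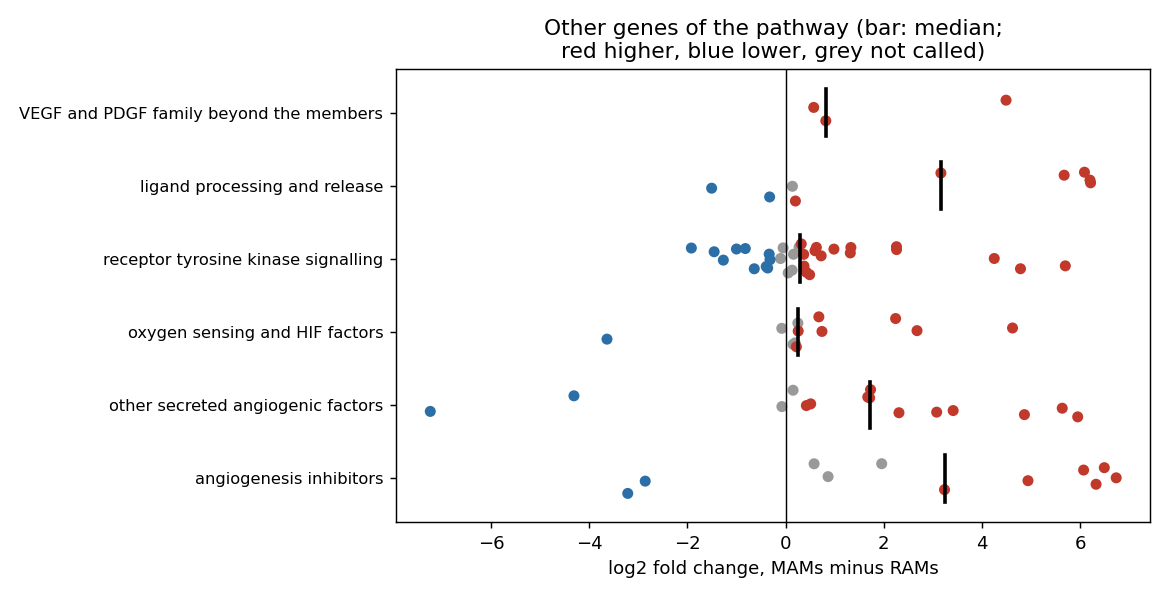
log2 fold change of MAMs minus RAMs for each tested gene of 6 lists of the pathway (points, coloured by call) with list medians as bars. Medians ran from 0.26 for oxygen sensing to 3.24 for angiogenesis inhibitors, and 5 of the 6 lists held genes of both directions.

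The genes whose levels ran most like those of the 3 members with the highest mean FPKM over all libraries were sought within groups over the 10 libraries, as Pearson's r of log2 CPM after subtraction of each group's mean. For Vegfa these were Tanc2 (r = 0.93), Zfand1 (0.90) and Ccdc28b (0.89). For Flt1 they were Grhl1 (0.98), Rras2 (0.97) and Rplp1 (0.97), and for Vegfb they were Ccl7 (0.95), Coro1a (0.94) and Tmem8 (0.94). These are the highest of 11570 values on libraries that also share depth and handling, and are given as a description.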

How the data were processed

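RNA of sorted MAMs and RAMs was made into libraries with the Ovation RNA-Seq System V2 and sequenced as paired reads. The authors aligned reads to GRCm38 with Tophat (2.0.13 in the submitters' processing notes), and the deposited counts are uniquely mapped reads per UCSC RefGene gene from htseq-count (HTSeq 0.6.1). The authors' FPKM values came from Cufflinks 2.2.1. Lines that name no gene held 56.5% ± 1.65 of all counts in MAMs and 63.2% ± 0.898 in RAMs (SD, n = 5 each) and were left out.

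Genes were tested if their mean FPKM reached 1 in either group and any read was counted (11571; 51 genes past the filter had no count). Groups were compared by the quasi-likelihood F test of edgeR 4.0.16 in R 4.3.3 with TMM normalization and no covariate. A gene was called at an adjusted p under 0.05. Standard errors were taken as the log2 fold change over the root of F. The edgeR test with and without a replicate block, DESeq2 and limma were tested on simulated counts with known changes. There limma was given counts scaled to library size in place of FPKM. The exact permutation test was not tested in this way. DESeq2 1.42.0, limma 3.58.1, other scalings, other filters, a replicate block and each library left out were alternatives. A fit that subtracted 1% of the other group's mean level was chosen after seeing the data. Levels without a test were compared by exact permutation. Python 3.11.15 and matplotlib 3.10.9 made the figures.

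Members and gene lists were chosen with earlier results of these data known. Named were all 10 members, the neuropilins, PDGF receptors, Hif1a and Epas1, the 3 largest called changes of each pathway list (1 gene is not reported here), the most abundant gene of each marker list, and genes most like the 3 members with the highest mean FPKM over all libraries. Other marker genes and list genes were named after their values were seen. Where replicate samples differ, the spread may be technical or between mice. SDs and the standard errors of edgeR include the spread between libraries. The floor of 3 counts covers counting error only, and reads that carry no molecular identifier are not independent.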

Additional observations from a re-analysis of the deposited data

Results flagged for a closer look

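In groups of 5 libraries, 4 of the 20 sets of member values held a library set apart from the others by more than Dixon's 95% limit, where chance gives about 1 in 20. Vegfa was at 277 CPM in MAM replicate 4, against 198 to 205 CPM in the other MAM libraries, and Vegfc was at 0.615 CPM in the same library, against at most 0.0203 CPM in the others. Pgf was at 1.19 CPM in MAM replicate 5, against at most 0.0224 CPM in the other MAM libraries. Pdgfa was at 2.63 CPM in RAM replicate 3, against at most 0.180 CPM in the other RAM libraries.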

How the results depend on the processing

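Of the 8 tested members, Vegfa, Vegfb, Flt1, Kdr, Pdgfa, Pdgfb and Pdgfc kept their direction and call in each of 19 alternative fits. Pgf was also called with DESeq2, with limma on log2(FPKM + 1) and on log2(FPKM + 0.1), with the replicate block and without MAM replicate 5, and kept its direction in all fits. No member reversed. Tagln, which did not pass the threshold, changed sign in 2 fits. Upper-quartile scaling gave 5 calls among the oxygen sensing genes in place of 8. The number of members at their rank in RAMs was 6 of 10 by CPM per kilobase of annotated exon and between 5 and 10 with a RAM library left out. The cause was not tested. Over all genes 6504 were called, and between 6122 and 6367 with a library left out. Over all tested genes, samples of equal number showed little shared deviation (correlations from -0.037 to 0.029). MAM replicates 3 and 5 matched the RAM library of the same number best, and the other MAM replicates did not. A batch shared by samples of equal number in only some genes was not tested. With the replicate block 6305 genes were called, with 4 members higher and 4 lower, the added one being Pgf (adjusted p = 0.014, edgeR). Depth limits Vegfc, Pgf, Flt4 and Pdgfa, for which some libraries held 3 counts or fewer.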

Other observations

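Markers of other cells that could carry VEGF or PDGF transcripts were summed in each library. The 9 tumour epithelial markers summed to between 5.27 and 22.7 CPM in MAMs and between 440 and 568 CPM in RAMs, where Krt19 alone had 436 CPM. Epcam had 0.652 CPM in MAMs and 76.8 CPM in RAMs. Krt8 and Krt18 had higher means in MAMs, at 1.48 and 1.81 CPM, than in RAMs, at 0.0453 and 0.119 CPM. The groups did not overlap for Krt8 but did for Krt18, and Krt5 and Cldn3 had 0 counts throughout. The part of tumour RNA in the MAM libraries was not tested. The 12 lung epithelial markers summed to between 75.6 and 115 CPM in MAMs and between 97.6 and 145 CPM in RAMs. Most of the sum came from Abca3, at between 50.8 and 71.3 CPM in MAMs and between 66.4 and 97.6 CPM in RAMs. Of 6 tested, 1 was higher in MAMs, 4 were lower and 1 did not pass the threshold. The higher one was Hopx, at between 16.1 and 27.3 CPM in MAMs and between 0.334 and 2.49 CPM in RAMs. Its log2 fold change was 4.25 (adjusted p = 8.3e-07, edgeR). Scgb1a1 had means of 0.752 CPM in MAMs and 10.4 CPM in RAMs, and Nkx2-1 had 0 counts in every MAM library. Neutrophil markers (9, led by Csf3r) summed to between 124 and 312 CPM in MAMs and between 139 and 203 CPM in RAMs, and the 9 lymphocyte markers to at most 17.9 and 19.5 CPM, with Cd79a at 2.15 and 3.75 CPM. Of the 6 erythrocyte markers, Alas2 had 3.05 and 3.70 CPM, and Hbb-bs and 4 others had 0 counts throughout. FPKM of Hbb-bs was nevertheless 2.94 in MAMs and 0.00303 in RAMs, so the 0 counts do not show that its transcript was absent.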
